A study of Mus musculus with 6 samples.

Results

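The genes described here encode 8 receptors for peptides of feeding and arousal circuits, namely Hcrtr1, Hcrtr2, Mchr1, Glp1r, Mc4r, Galr1, Trhr and Calcr. They were taken by symbol from the gene table, and all 8 of the 8 were present among its 32285 genes (ENSMUSG00000028778, ENSMUSG00000032360, ENSMUSG00000050164, ENSMUSG00000024027, ENSMUSG00000047259, ENSMUSG00000024553, ENSMUSG00000038760 and ENSMUSG00000023964 in that order). They were measured in 6 droplet libraries of nuclei from wild type mice, all taken from the septal area of the brain, which form 1 group. The sources used here give no age, sex, dissection or number of animals. Nothing says that the libraries are separate animals, so p-values measure the spread between these libraries alone, which may be technical. With no contrast between samples, the receptors were compared between classes of nuclei within the same libraries.

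The septum lies between the lateral ventricles. Its lateral part holds mostly inhibitory neurons that project to the hypothalamus, and its medial part has cholinergic, inhibitory and glutamatergic cells that project to the hippocampus. All 8 genes encode receptors coupled to G proteins. Hcrtr1 and Hcrtr2 are the receptors of the orexins, wake-promoting peptides of the lateral hypothalamus, and Mchr1 is the rodent receptor of melanin-concentrating hormone from neighbouring cells. Glp1r binds glucagon-like peptide 1, a satiety peptide, and Mc4r binds the melanocortins made from Pomc, with Agrp as its natural antagonist. Galr1 binds galanin, Trhr binds thyrotropin-releasing hormone, and Calcr binds calcitonin and, together with RAMP proteins, amylin.

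The 6 libraries held 55537 barcodes with total counts of 70183544 to 95175260 unique molecular identifiers (UMIs, 1 for each RNA molecule captured). Nuclei with at least 500 detected genes numbered 54623, with a median of 5175 to 6863 UMIs per library. No pair of libraries had more than 0.433% of the smaller library's barcodes in common, and mitochondrial UMIs made up 0.047 to 0.0706% of the total. Marker panels put 23892 nuclei in the neuron class and 21762 in the glia class, which joined 10567 astrocyte, 7559 oligodendrocyte, 2583 oligodendrocyte precursor and 1053 microglia nuclei. All 6 neuron markers were present in the neuron class, with a summed level of 19092 to 20800 counts per 1000000 UMIs (CPM) per library. Within the neurons, 18814 nuclei carried mainly GABAergic and 892 mainly glutamatergic transmitter markers. Levels below are CPM of UMIs summed per library and class, and n counts libraries.

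All 8 receptors were higher in neurons than in glia, by 1.35 to 2.98 on the log2 scale, and all 8 passed the threshold of 0.05 in edgeR's quasi-likelihood test with Benjamini-Hochberg adjustment over 19104 genes. Of all genes tested 84.5% were called and 42.5% were called higher in neurons, so a call by itself is common here. The median log2 difference, neurons over glia, was 2.20 over the 8 receptors and 0.01 over all genes. Hcrtr2 had 16.4, 19.2 and 21.4 CPM (lowest, median and highest library) in neurons, against 2.23, 2.38 and 3.33 CPM in glia. The mean was 18.9 ± 1.81 CPM in neurons and 2.59 ± 0.443 CPM in glia (SD, n = 6 each), a log2 difference of 2.98 (SE 0.07, adjusted p = 7.4e-15). Every neuron value of Hcrtr2 lay above every glial value.

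Galr1, Calcr and Trhr came next in this comparison. Galr1 had 2.97, 3.36 and 4.47 CPM in neurons, against 0.352, 0.487 and 0.605 CPM in glia, with a log2 difference of 2.90 (SE 0.15, adjusted p = 7.04e-11). Calcr had 8.9, 10.2 and 12 CPM in neurons, against 1.04, 1.58 and 1.86 CPM in glia (log2 difference 2.87, SE 0.1, adjusted p = 4.29e-13). Trhr had 9.44, 9.69 and 11.1 CPM in neurons, against 1.11, 1.82 and 2.28 CPM in glia (2.61, SE 0.11, adjusted p = 5.35e-12). For these 3 genes too the neuron and glial libraries did not overlap.

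Glp1r showed a smaller difference. It had 7.82, 8.5 and 10.4 CPM in neurons, against 2.04, 2.7 and 3.87 CPM in glia, with a log2 difference of 1.78 (SE 0.09, adjusted p = 5.93e-11). With UMIs pooled over libraries, its glial level was 31.8% of the neuronal level, while that of Hcrtr2, Galr1, Trhr and Calcr was 13.7 to 17.7%. The summed neuron panel, which the gate keeps low in glia, stood at 12.5% of its neuronal level, with all 6 markers detected in glia. Whether the glial UMIs of the receptors came from glial RNA or from free RNA in the droplets was not tested.

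The other 3 receptors, Hcrtr1, Mchr1 and Mc4r, were sparsely counted, with 216 to 226 UMIs in all neurons and 22 to 26 UMIs in all glia. Hcrtr1 had 0.534, 0.64 and 0.781 CPM in neurons, against 0.136, 0.234 and 0.363 CPM in glia (log2 difference 1.48, SE 0.28, adjusted p = 0.000145), with no overlap between libraries. Mchr1 had 0.452, 0.654 and 0.738 CPM in neurons, against 0.068, 0.242 and 0.563 CPM in glia (1.35, SE 0.33, adjusted p = 0.00133). Mc4r had 0.417, 0.599 and 1.15 CPM in neurons, against 0.0495, 0.234 and 0.476 CPM in glia (1.68, SE 0.38, adjusted p = 0.000848). Libraries of Mchr1 and Mc4r overlapped between the classes, and within libraries Mchr1 was higher in neurons in 5 of 6 and Mc4r in 6 of 6.

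**Figure D1:**
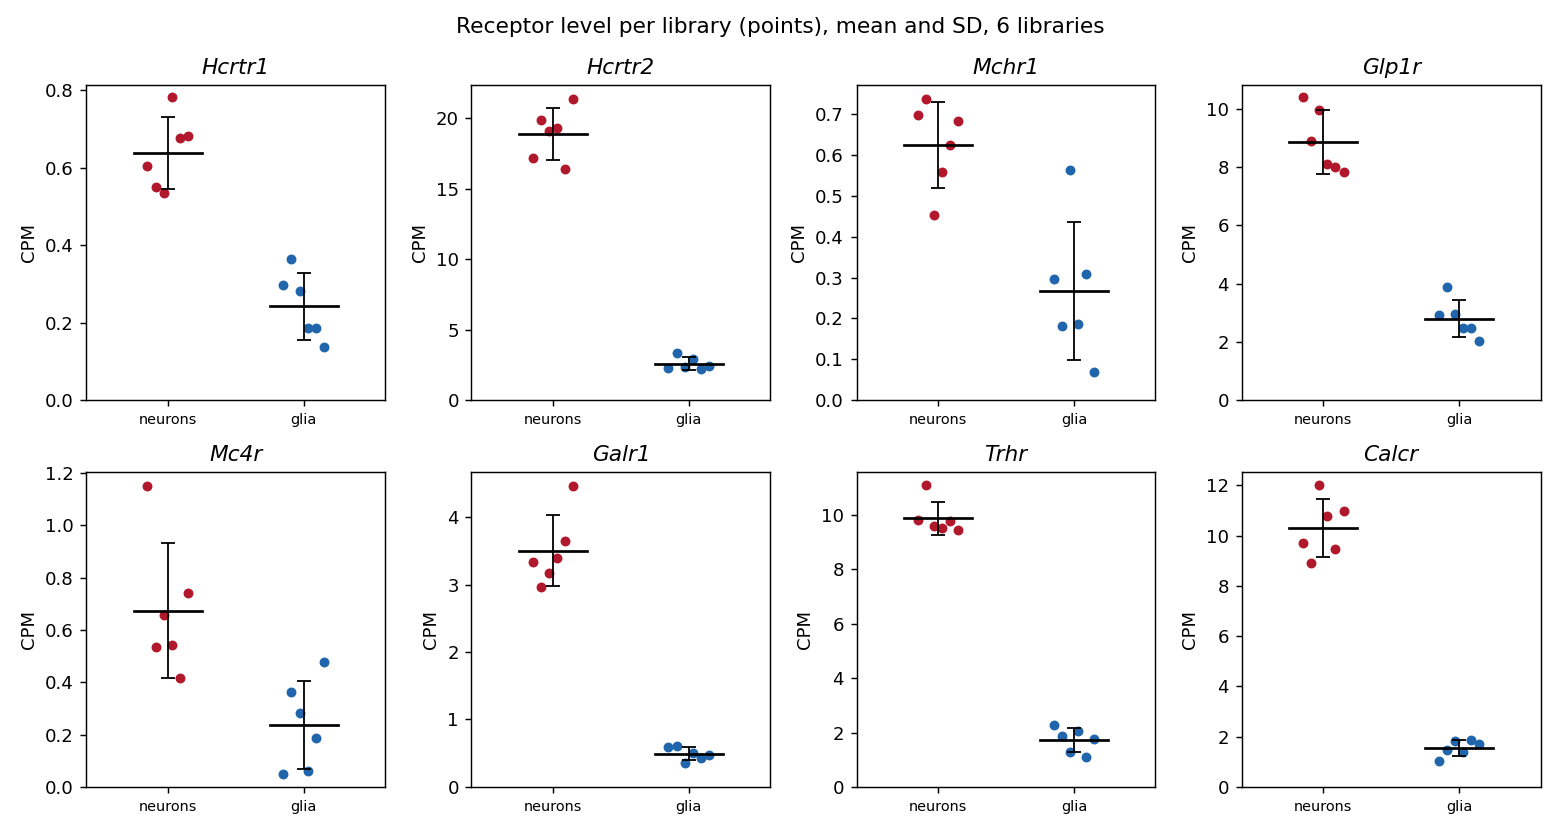
Levels of the 8 receptors in CPM (vertical axes, each from 0) in neurons and in glia. Points are the 6 libraries and bars show the mean and SD. The classes do not overlap for Hcrtr1, Hcrtr2, Glp1r, Galr1, Trhr and Calcr, and overlap for Mchr1 and Mc4r.

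Among the non-neuronal classes, some levels reached the range of neurons on few UMIs. Glp1r averaged 7.1 ± 2.81 CPM in endothelial nuclei (3.07 to 11.3 CPM, 13 UMIs in 812 nuclei), and its pooled level of 6.96 CPM had an exact Poisson 95% interval of 3.71 to 11.9 CPM, which, as all such intervals here, covers counting error only. In astrocytes Glp1r averaged 3.36 ± 0.748 CPM on 152 UMIs, and in oligodendrocyte precursors 1.52 ± 0.524 CPM on 28 UMIs. The endothelial libraries of Glp1r overlapped those of neurons, while every astrocyte and precursor library lay below all neuron libraries.

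Hcrtr1 averaged 0.605 ± 0.258 CPM in oligodendrocyte precursors (0.314 to 0.997 CPM, 11 UMIs), a range that overlaps that of neurons, against 0.105 ± 0.137 CPM in astrocytes and 0.235 ± 0.188 CPM in oligodendrocytes. Ependymal nuclei, which line the ventricle, held Calcr at 2.73 ± 1.7 CPM (30 UMIs), Galr1 at 1.2 ± 1.16 CPM (13 UMIs) and Mchr1 at 0.546 ± 0.358 CPM (6 UMIs). Calcr in microglia averaged 4.11 ± 5.03 CPM on 11 UMIs, with 1 library at 14 CPM and 1 at 0. Among the 455 pericyte or smooth muscle nuclei Glp1r averaged 6.98 ± 6.34 CPM on 8 UMIs and Trhr 4.54 ± 9.05 CPM on 5 UMIs, and endothelial nuclei held 0 to 7 UMIs of each receptor other than Glp1r. In fibroblast nuclei only Glp1r gave a count (1 UMI in 77 nuclei), and the 172 neuroblast or dividing nuclei held 2 to 5 UMIs of Hcrtr2, Glp1r and Calcr and no UMI of the other 5 receptors. These vascular, ependymal and progenitor classes entered no test.

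Depth differed between the classes, with a median of 12086 UMIs in neurons and 3515 in oligodendrocytes. After each nucleus was thinned to 2000 UMIs, leaving out 956 neurons and 720 oligodendrocytes that were shallower, 2.96% of neurons and 0.479% of oligodendrocytes held a UMI of Hcrtr2, against unthinned shares of 9.95% and 0.792%. For Calcr the thinned shares were 1.62% of neurons and 0.241% of oligodendrocytes, against 4.69% and 0.385% unthinned. For Glp1r they were 1.59% and 0.47%, against 8.43% and 1.05% unthinned. The thinned share stayed higher in neurons for these receptors, which were detected in a minority of neurons.

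Within neurons, the receptors split between the transmitter classes. Calcr and Galr1 were higher in GABAergic than in glutamatergic neurons, Hcrtr2 and Glp1r were lower, and the other 4 did not pass the test. Of 17502 genes tested 29.9% were called, 16.3% higher and 13.6% lower in GABAergic neurons, beside 4 of 8 receptors. Calcr had 9.47, 11.1 and 12.6 CPM in GABAergic neurons, against 0.865, 1.94 and 4.04 CPM in glutamatergic neurons. The means were 10.9 ± 1.22 CPM and 2.15 ± 1.16 CPM in GABAergic and glutamatergic neurons (SD, n = 6 each), a log2 difference of 2.39 (SE 0.24, adjusted p = 7.38e-08). The GABAergic libraries all lay above the glutamatergic ones, whose level rested on 24 UMIs.

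Hcrtr2 went the other way. It had 13, 15.8 and 19.3 CPM in GABAergic neurons, against 46.8, 73.2 and 92.2 CPM in glutamatergic neurons (838 UMIs), with a log2 difference of -2.19 (SE 0.21, adjusted p = 0.000393). Glp1r had 7.14, 8.16 and 8.93 CPM in GABAergic neurons, against 11, 21 and 27.6 CPM in glutamatergic neurons (243 UMIs), with a log2 difference of -1.33 (SE 0.16, adjusted p = 2.06e-06). Neither gene overlapped between the classes. Galr1 had 3.15, 3.63 and 4.65 CPM in GABAergic neurons, against 0, 1.57 and 2.87 CPM in glutamatergic neurons, a log2 difference of 1.17 (SE 0.35, adjusted p = 0.0144). Its libraries did not overlap, but the glutamatergic level came from 19 UMIs and the call was lost without replicate 1 (adjusted p = 0.0617), without replicate 6 (0.0559) and without barcodes over 25000 UMIs (0.0776).

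Trhr averaged 9.96 ± 0.742 CPM in GABAergic neurons and 10.8 ± 5.09 CPM in glutamatergic neurons, with GABAergic neurons higher in 3 libraries and lower in 3 (log2 difference -0.06, adjusted p = 0.882). Hcrtr1 averaged 0.588 ± 0.117 CPM in GABAergic neurons and 1.36 ± 1 CPM in glutamatergic neurons (log2 difference -1.18, adjusted p = 0.0788), on 15 glutamatergic UMIs, and passed without the library block (-1.14, adjusted p = 0.0481). Mchr1 averaged 0.587 ± 0.103 CPM in GABAergic neurons and 1.06 ± 0.534 CPM in glutamatergic neurons (log2 difference -0.82, adjusted p = 0.258). Mc4r averaged 0.71 ± 0.258 CPM in GABAergic neurons and gave 2 UMIs in 1 glutamatergic library (2.05, adjusted p = 0.0999), and passed without replicate 6, the library with those UMIs (adjusted p = 0.0221), and once neuron clusters led by glial genes or low in UMIs were left out (2.91, adjusted p = 0.035). These 4 genes carry no call in either direction. The glutamatergic class was made up to 77.4% of Slc17a6-rich clusters, and its astrocyte panel summed to 210 to 483 CPM, against 374 to 550 CPM in GABAergic neurons for the same panel.

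Inside the GABAergic class most receptors differed between lateral septum-like and other neurons. Clusters of neurons were built without the 8 receptors and without their pathway genes. Those led by glial genes, low in UMIs or fitting another name were set aside first and counted as other. A remaining cluster was called lateral septum-like where the summed level of Trpc4, Dgkg, Homer2, Ptpn3 and Cpne7 passed 1000 CPM. This gave 10660 lateral septum-like and 8154 other GABAergic nuclei. The clusters led by glial genes, counted as other, also passed that sum, at 1097 to 1441 CPM. Glp1r, Galr1, Calcr and Mc4r were higher in lateral septum-like neurons, Hcrtr1, Hcrtr2 and Trhr were lower, and Mchr1 did not pass. Of 17910 genes tested 58.3% were called, 27.7% higher and 30.6% lower, and 7 of 8 receptors were called. The median log2 difference over the 8 receptors was 0.09, against -0.01 over all genes.

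Hcrtr2 and Trhr showed the largest differences of the 8. Hcrtr2 had 3.93, 5.36 and 8.43 CPM in lateral septum-like GABAergic neurons, against 24.9, 29.3 and 32 CPM in other GABAergic neurons (log2 difference -2.27, SE 0.08, adjusted p = 3.09e-11). Trhr had 2.62, 3.78 and 4.62 CPM in lateral septum-like neurons, against 15.3, 17.5 and 22.1 CPM in other GABAergic neurons (-2.22, SE 0.08, adjusted p = 2.88e-15). The libraries of neither gene overlapped. Striatal medium spiny-like clusters made up 11.2% of the other GABAergic nuclei, and without them the differences were -2.14 for Hcrtr2 and -1.73 for Trhr (adjusted p = 7.24e-14 for Trhr). Slc17a6-rich clusters made up a further 5.89%, and their part in these differences was not tested. Hcrtr1 had 0.207, 0.38 and 0.54 CPM in lateral septum-like neurons, against 0.678, 0.837 and 1.02 CPM in other GABAergic neurons (-1.05, SE 0.24, adjusted p = 0.000574), again without overlap.

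Of the receptors higher on the lateral septal side, Glp1r differed most. Glp1r had 9.5, 11.1 and 11.9 CPM in lateral septum-like GABAergic neurons, against 3.48, 4.39 and 5.4 CPM in other GABAergic neurons (log2 difference 1.42, SE 0.07, adjusted p = 3.08e-14). Galr1 had 3.8, 4.54 and 6.21 CPM in lateral septum-like neurons, against 1.7, 2.3 and 3.19 CPM in other GABAergic neurons (1.01, SE 0.11, adjusted p = 3.28e-08). Calcr had 10.9, 13.5 and 15.2 CPM in lateral septum-like neurons, against 6.1, 8.22 and 9.66 CPM in other GABAergic neurons (0.79, SE 0.06, adjusted p = 1.29e-10). None of these 3 overlapped between the classes.

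Mc4r had 0.553, 0.723 and 1.55 CPM in lateral septum-like neurons, against 0.315, 0.561 and 0.719 CPM in other GABAergic neurons (log2 difference 0.65, SE 0.21, adjusted p = 0.0108). Its libraries overlapped although the lateral septum-like value was the higher in 6 of 6, and 5 of 19 alternatives lost the call, among them the fit without replicate 1 (adjusted p = 0.0841) and DESeq2 (0.0989). Mchr1 averaged 0.49 ± 0.116 CPM in lateral septum-like neurons and 0.718 ± 0.117 CPM in other GABAergic neurons (-0.47, SE 0.22, adjusted p = 0.069). It passed with predicted doublets removed (-0.73, adjusted p = 0.00916) and stood at -0.07 (adjusted p = 0.824) without the striatal medium spiny-like clusters.

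The classes in this comparison also differed in markers of other cells. All 6 astrocyte markers were detected in both, with sums of 250 to 295 CPM in lateral septum-like neurons, against 559 to 774 CPM in other GABAergic neurons, and the 6 oligodendrocyte markers summed to 138 to 181 CPM, against 394 to 551 CPM. Clusters led by glial genes held 23.9% of the other GABAergic nuclei and, by the way the classes were made, none of the lateral septum-like ones. Predicted doublets made up 31.4 to 92.18% of the nuclei in each of these clusters, against at most 1.78% in any lateral septum-like cluster. With the clusters led by glial genes and the low-UMI clusters left out, the 7 calls kept their direction and stayed past the threshold. Clusters 1, 22 and 29, with 2470 nuclei, lay near the lateral septum threshold and were counted as other GABAergic.

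**Figure D2:**
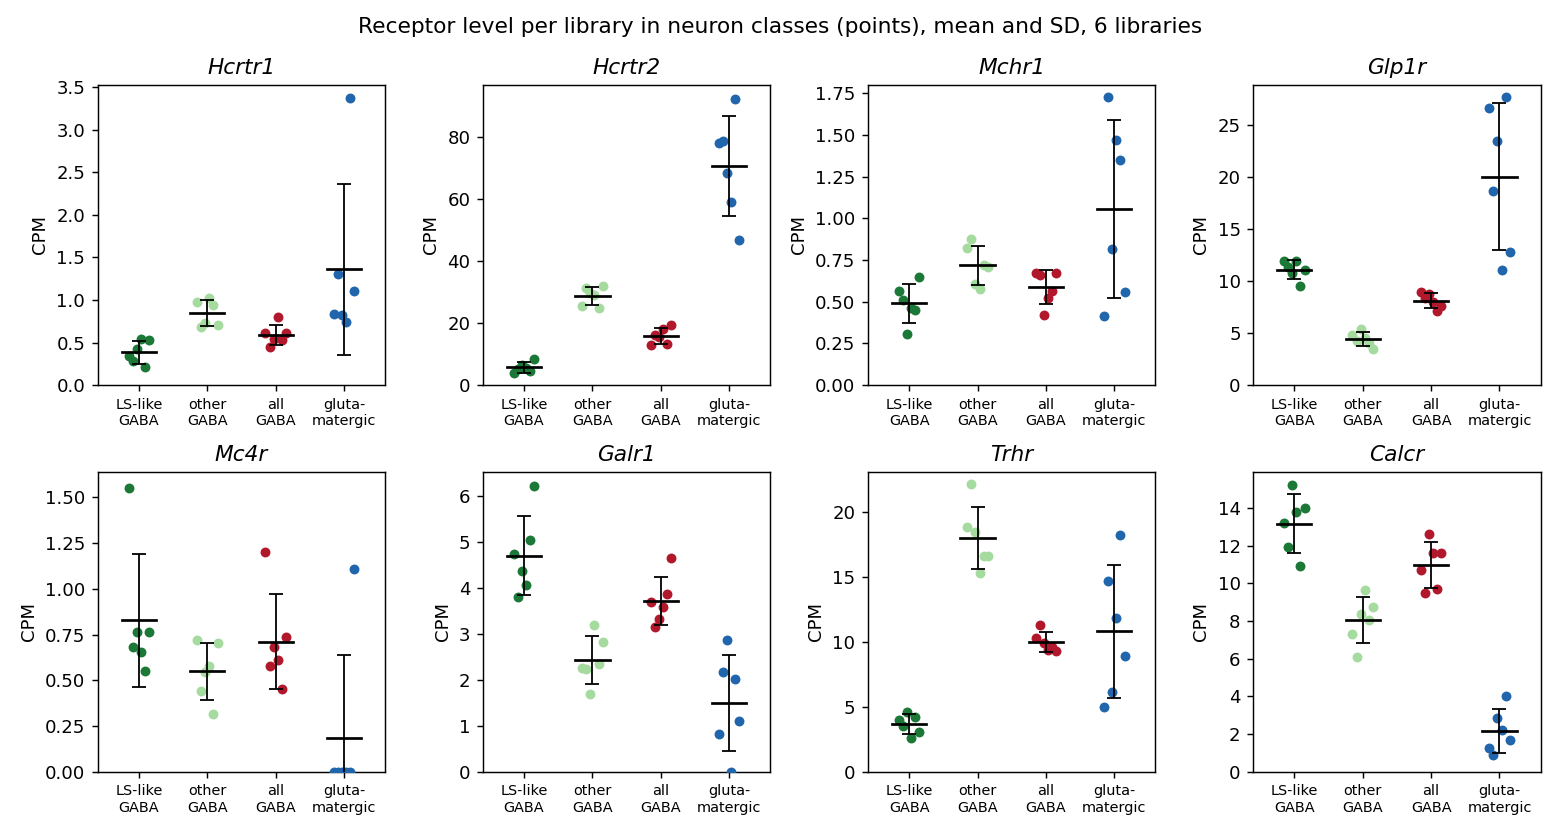
Levels of the 8 receptors in CPM (vertical axes, each from 0) in lateral septum-like (LS-like), other and all GABAergic neurons and in glutamatergic neurons. Points are the 6 libraries and bars show the mean and SD. For Hcrtr2 the lateral septum-like libraries all lie below the other GABAergic ones, and for Calcr the GABAergic libraries all lie above the glutamatergic ones.

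Cholinergic-like neurons, a cluster of 72 nuclei with cholinergic markers such as Chat and Slc5a7, could be compared with GABAergic neurons in the 4 libraries that held at least 10 such nuclei, 54 nuclei in all. The floor of 3 counts over these pooled nuclei stood at 3.19 CPM. Of 17159 genes 13.2% were called, 4.66% higher and 8.58% lower in cholinergic-like neurons, and the median of all genes lay at -0.22 on the log2 scale. DESeq2 gave 828 genes higher and 808 lower, with a median of -0.06, and edgeR with RLE size factors gave 990 higher and 1171 lower, with a median of -0.10, so differences here are to be read against that shift.

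Hcrtr2 averaged 3.16 ± 2.43 CPM in cholinergic-like neurons on 3 UMIs and 15.1 ± 2.36 CPM in GABAergic neurons (SD, n = 4 each), and passed the test (log2 difference -2.36, SE 0.7, adjusted p = 0.00813). The ratio of the pooled levels was 0.209, with a 95% counting interval of 0.0431 to 0.612. Calcr gave 1 UMI in cholinergic-like neurons (ratio 0.103, interval 0.0026 to 0.573, adjusted p = 0.0105), and so did Glp1r (ratio 0.131, interval 0.00332 to 0.732, adjusted p = 0.0465). All 3 fell below GABAergic neurons, but on so few UMIs the calls depended on single libraries. The call of Hcrtr2 was lost in 4 of 15 alternatives, among them without replicate 2 (adjusted p = 0.0556), and that of Calcr in 4, among them without replicate 1 (0.123) and without replicate 5 (0.094). The call of Glp1r was lost in 9, among them each of the 4 fits without a library (adjusted p = 0.0688 to 0.21). Galr1 gave no UMI and did not pass edgeR's test (adjusted p = 0.119). By the floor of 3 counts over the pool its level was at least 1.12-fold lower than in GABAergic neurons. Mchr1 and Mc4r gave no UMI either, and their GABAergic levels of 0.608 and 0.693 CPM lay below that floor.

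Trhr did not pass the test. It averaged 10.2 ± 3.2 CPM in cholinergic-like neurons on 10 UMIs and 10.1 ± 0.85 CPM in GABAergic neurons, with a ratio of 1.05 and an interval of 0.502 to 1.93 (adjusted p = 0.953), and a difference within that interval was not detectable at this depth. Hcrtr1 gave 1 UMI in the 4 libraries (ratio 1.8, interval 0.0453 to 10.2, adjusted p = 0.871). Over all 6 libraries Hcrtr1 gave 6 UMIs in 4 of the 72 nuclei, at 0, 0, 9.35, 5.92, 0 and 15.1 CPM in replicates 1 to 6. The pooled level of 4.43 CPM has an interval of 1.63 to 9.65 CPM, and replicates 3 and 6, which hold most of it, were too small to enter the test.

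The levels of the receptors differed between clusters of neurons, and some receptors shared leading clusters. Of 42 clusters, the 30 described here held at least 100 nuclei and were neither led by glial genes nor low in UMIs. These levels are descriptions, with no test, since the clusters were made from the same nuclei, though the 8 receptors were left out of the clustering.

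**Figure D3:**
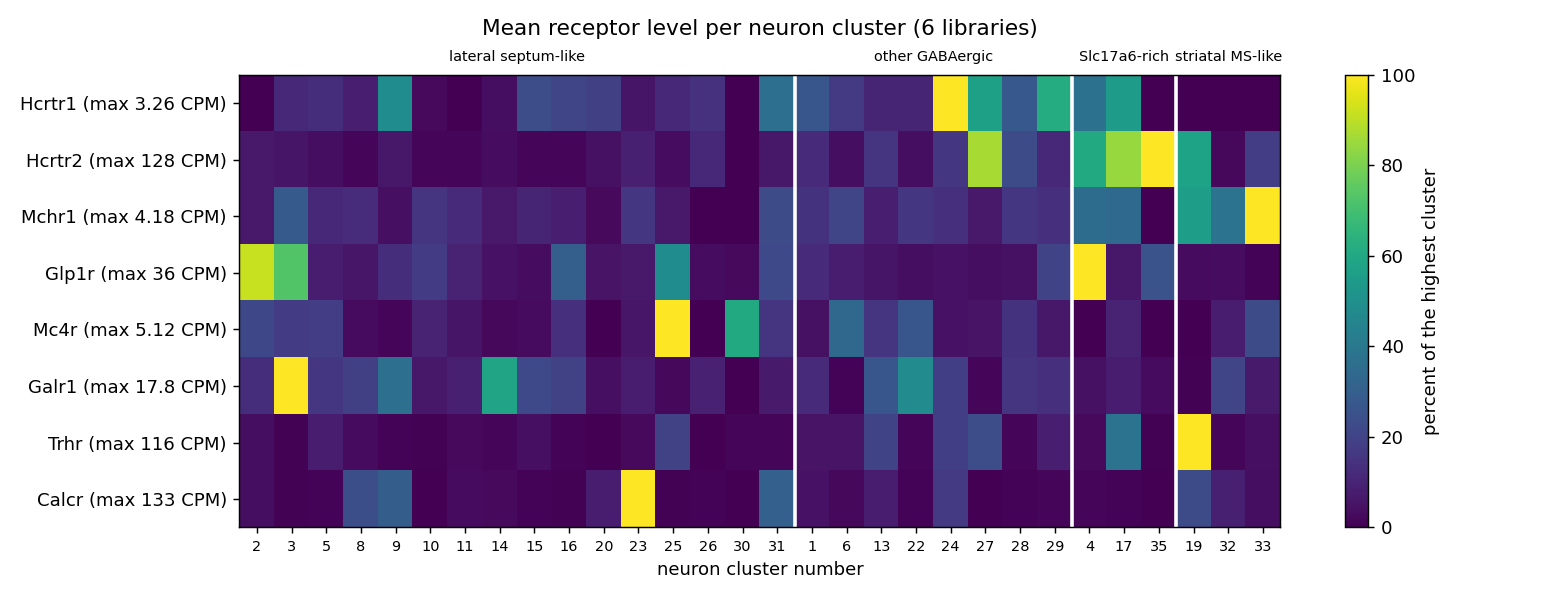
Mean level of each receptor (rows) in the 30 neuron clusters (columns, grouped by name), as a percent of that gene's highest cluster, whose CPM stands beside the gene. Calcr peaks in cluster 23, Trhr in cluster 19, Hcrtr2 in clusters 35, 27, 17, 4 and 19, Glp1r in clusters 4, 2 and 3 and Galr1 in cluster 3.

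For Hcrtr2, 5 clusters stood apart. Cluster 35, an Slc17a6-rich cluster with Ebf2 and Ebf3, had 59.7, 105 and 216 CPM (lowest, median and highest library), and cluster 27, a GABAergic cluster led by Casz1 and Sox6, had 75, 106 and 153 CPM. Cluster 17, Slc17a6-rich with Onecut2 and Dach1, had 89.9, 102 and 143 CPM. Cluster 4, Slc17a6-rich with Corin and Ebf3, had 56.5, 81.6 and 95.5 CPM. Despite its name, cluster 17 held more GABAergic than glutamatergic transmitter markers, with sums of 287 and 131.7 CPM. Glutamatergic markers were the higher in cluster 4 (193.7 CPM, against 77.67 CPM GABAergic) and in cluster 35 (186.4 CPM, against 49.47 CPM). Cluster 19, a striatal medium spiny-like cluster, had 62.6, 74.5 and 87.7 CPM. Neighbours in this order overlapped, so the order within these 5 is not resolved. The next cluster, 28, averaged 29 ± 15.8 CPM with a highest library of 53.3 CPM, below every library of cluster 19. Clusters 35, 27, 17 and 4 together held 54.7% of the Hcrtr2 UMIs of the described clusters and 11.5% of their nuclei, while cluster 30 of the lateral septum-like group averaged 0.315 CPM on 2 UMIs.

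The other orexin receptor, Hcrtr1, was spread more evenly on far fewer UMIs. Its highest cluster was 24, a GABAergic cluster led by Greb1 with Prlr, Lhx6 and Esr2, at 1.38, 3.53 and 4.14 CPM (23 UMIs). Cluster 29 followed at 2.02 ± 2.79 CPM and cluster 27 at 1.85 ± 0.869 CPM, and the ranges overlapped down the order. No UMI of Hcrtr1 was found in the 1033 striatal medium spiny-like nuclei, where the floor of 3 counts stood at 0.264 CPM, although cluster 19 among them held Hcrtr2.

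Trhr was led by cluster 19, whose leading genes include Rarb, Prkch and Pde7b. Cluster 19 had 81.2, 110 and 162 CPM, and cluster 17 had 37.1, 41.7 and 51.9 CPM. Cluster 19 was the highest in 6 of 6 libraries and none of its libraries overlapped those of cluster 17. Cluster 27 averaged 27.3 ± 11.4 CPM, cluster 13 had 24 ± 10.3 CPM, and cluster 25, the highest of the lateral septum-like clusters, had 22.3 ± 8.48 CPM. Clusters 19, 17 and 27 held 53% of the Trhr UMIs and 8.24% of the nuclei, and all 3 were also among the 5 clusters high in Hcrtr2. In the striatal medium spiny-like clusters as a group Trhr averaged 75.4 ± 16.5 CPM (n = 6), with 818 of the 831 UMIs in cluster 19. Clusters 33 and 32 of that group averaged only 4.58 and 1.93 CPM, on 10 and 3 UMIs.

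The 4 clusters with the highest mean level of Calcr were lateral septum-like. Cluster 23, with Ndst4, Reln and the prolactin receptor gene Prlr among its leading genes, had 114, 137 and 148 CPM. Cluster 31, led by Cpa6 and Matn2, had 29 to 50.4 CPM, cluster 9, led by the estrogen receptor gene Esr1, averaged 39.1 ± 13.4 CPM, and cluster 8, with Nxph1 and Tll1, averaged 32 ± 12.5 CPM. Cluster 23 was the highest in 6 of 6 libraries and lay above every library of the next cluster, while clusters 31, 9 and 8 overlapped. Cluster 19, striatal medium spiny-like, averaged 30.5 ± 19.3 CPM and overlapped cluster 8, and over the striatal medium spiny-like clusters Calcr averaged 24.3 ± 14.5 CPM. Clusters 23, 31, 9 and 8 held 64.3% of the Calcr UMIs and 12.9% of the nuclei. No UMI of Calcr was found in the 448 nuclei of cluster 27, which allows up to 0.366 CPM by the floor of 3 counts, nor in the 121 nuclei of cluster 35, where the floor was 2.65 CPM. Both were among the 5 clusters high in Hcrtr2.

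Glp1r was led by 3 clusters that overlapped in neighbouring pairs. Cluster 4 had 30.3, 34.6 and 43.1 CPM, cluster 2, lateral septum-like with Ano2 and Ntf3, had 28.6, 31.5 and 41.1 CPM, and cluster 3, lateral septum-like with Chga, Nts and the activity-regulated genes Nr4a3 and Egr3, had 19.5, 25.4 and 34.8 CPM. Together they held 67% of the Glp1r UMIs and 18.6% of the nuclei. Glp1r was thus high in 1 of the 5 clusters high in Hcrtr2, cluster 4, while cluster 33 of the striatal medium spiny-like group averaged 0.284 CPM.

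Galr1 was also highest in cluster 3, at 12.8, 16.6 and 25.8 CPM. Cluster 14, lateral septum-like with Ddr2 and Met, had 7.87, 9.63 and 15 CPM, and cluster 22 averaged 8.56 ± 5.41 CPM. Cluster 3 was the highest in 5 of 6 libraries, and its range overlapped that of cluster 14. Clusters 3, 14, 22 and 9 held 54.6% of the Galr1 UMIs and 16.1% of the nuclei.

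Mchr1 and Mc4r gave the sparsest maps. Mchr1 averaged 4.18 ± 4.22 CPM in cluster 33 (8 UMIs) and 2.32 ± 1.83 CPM in cluster 19 (21 UMIs), and over the 3 striatal medium spiny-like clusters it averaged 2.71 ± 1.12 CPM (33 UMIs). Mc4r was highest in cluster 25, lateral septum-like with Cpa6 and Mctp2, at 1.09, 3.96 and 11.8 CPM (36 UMIs), followed by cluster 30, with Foxp2, at 3.11 ± 2.41 CPM (14 UMIs). Neighbouring clusters overlapped in every case, and the order of clusters for these genes is not resolved at this depth.

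**Figure D4:**
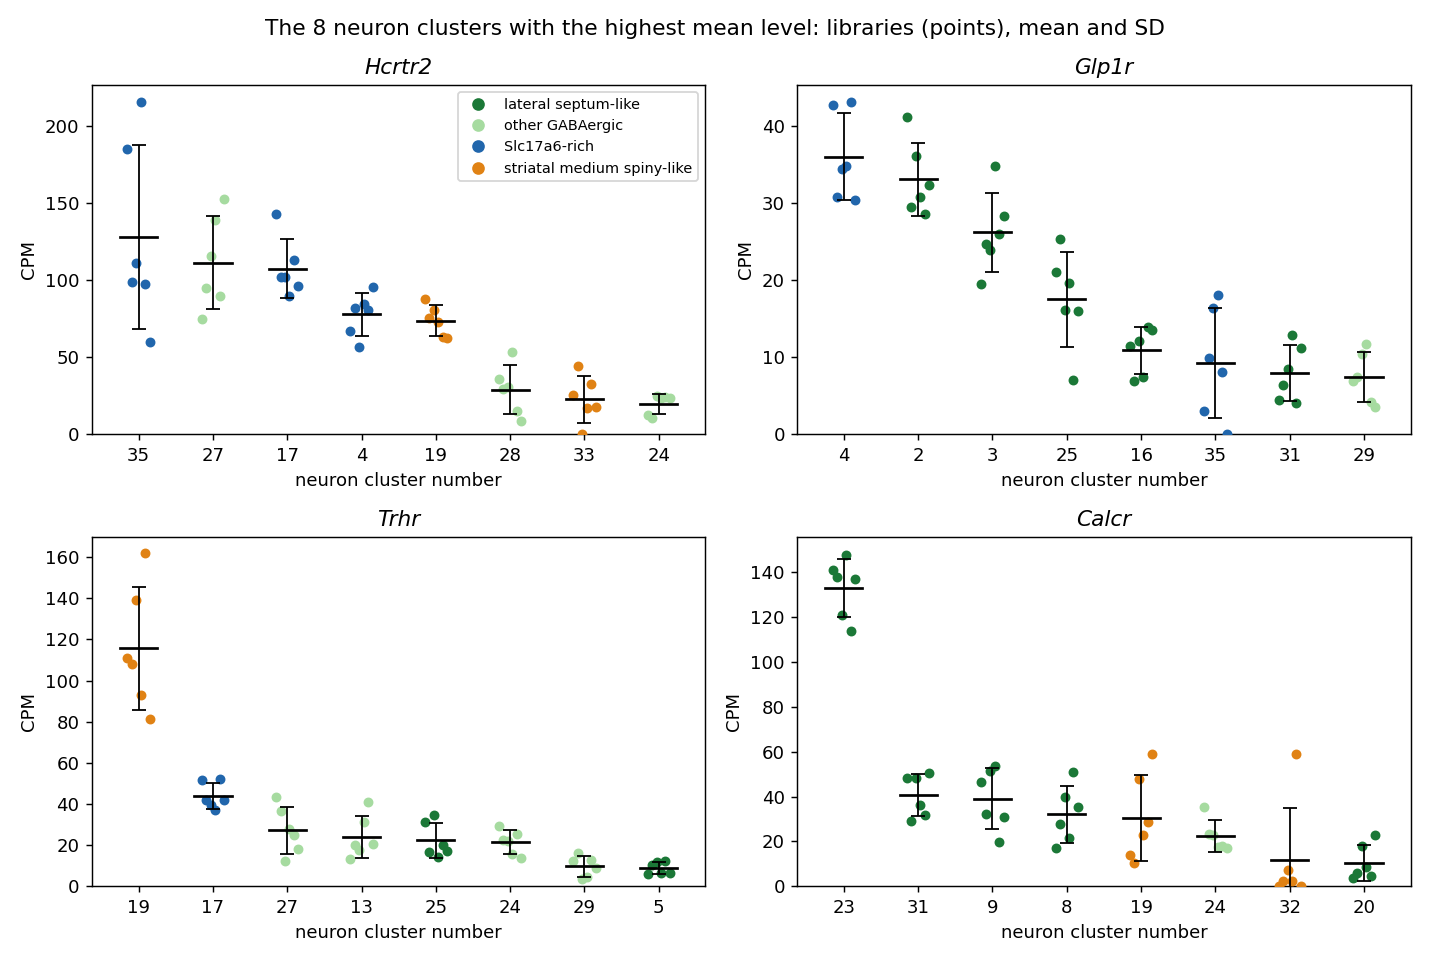
Levels in CPM (vertical axes, each from 0) of Hcrtr2, Glp1r, Trhr and Calcr, each in its 8 highest neuron clusters (horizontal axes, cluster numbers). Points are libraries, coloured by the name of the cluster, and bars show the mean and SD. Cluster 23 for Calcr and cluster 19 for Trhr stand clear of the next cluster.

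Within a leading cluster the receptor was found in part of the nuclei. Calcr gave a UMI in 222 of 540 nuclei of cluster 23 (41.1%), at 3.68 UMIs per such nucleus, and the top 10% of nuclei held 55.3% of its UMIs. In clusters 9 and 8 it was found in 14.6% and 14.1% of nuclei, at 3.27 and 3.46 UMIs per such nucleus, and the top 10% held 90.4% and 91.7%. In cluster 19 it was found in 41 of 590 nuclei (6.95%) at 4.8 UMIs each, and in cluster 32 a single nucleus held 22 of the 25 UMIs. Calcr in clusters 9, 8 and 19 thus came from few nuclei with several UMIs each.

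Hcrtr2 behaved likewise in part. It was found in 52.7% of cluster 27 at 3.88 UMIs per such nucleus (up to 49 in 1 nucleus), in 35.1% of cluster 17 at 4.84 and in 29% of cluster 4 at 2.68. Trhr was found in 46.8% of cluster 19 at 2.96 UMIs per such nucleus. Glp1r was found in 27.6% of cluster 4, 30% of cluster 2 and 26.5% of cluster 3, at 1.38 to 1.84 UMIs per such nucleus. Galr1 was found in 13.1% of cluster 3 at 2.24 UMIs per such nucleus, and the top 10% of nuclei held 89.6% of its UMIs. Hcrtr1, Mchr1 and Mc4r gave 1 to 1.12 UMIs per nucleus with a UMI in their highest clusters. After thinning to 2000 UMIs the shares were 18.1% for Calcr in cluster 23, 18.6% for Trhr in cluster 19, 21.4% for Hcrtr2 in cluster 35, 6.88% for Glp1r in cluster 4 and 2.82% for Galr1 in cluster 3.

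Where a pair of receptors marked the same cluster, their nuclei overlapped in part. In cluster 17, Trhr was found in 46.4% of the 224 nuclei with Hcrtr2 and in 30.9% of those without it, and in cluster 19 in 54.5% of the 209 nuclei with Hcrtr2 and in 42.5% of those without. In cluster 27 the shares were 28.8% and 27.8%. Galr1 in cluster 3 was found in 17.1% of the 304 nuclei with Glp1r and in 11.6% of those without. Nuclei with Hcrtr2 were deeper in each of clusters 17, 19 and 27 (a median of 17814 UMIs, against 12756 without it, in cluster 27), and these shares were not corrected for depth. Across the 30 clusters the levels of receptor pairs, as log2(CPM + 1), correlated between -0.37 (Hcrtr2 with Mc4r) and 0.44 (Hcrtr2 with Trhr), and Hcrtr1 with Hcrtr2 at 0.35. These values are Pearson r over clusters that share the same 6 libraries and differ in depth.

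The genes whose levels followed a receptor most closely were sought over the 35 clusters of at least 100 nuclei, among 11089 genes of at least 5 CPM, by Pearson r of log2(CPM + 1). Among the genes closest to Hcrtr2 were Gipc2 (r = 0.799) and Efr3b (0.786). Trhr was followed by Unc13c (0.726), a synaptic vesicle priming factor, and Mchr1 by Tac1 (0.725), the precursor of substance P. Tac1 stayed first for Mchr1 over the 30 clusters left without the glia-led and low-UMI ones, at 0.791, and Gipc2 stood at 0.808 for Hcrtr2. There Myo5a (0.806) took the place of Efr3b among the 3 genes closest to Hcrtr2.

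Calcr was followed by Ppp1r9a (0.711), Asb4 (0.707) and Naa50 (0.706), and over the 30 clusters Peg10 (0.708) took the third place. Ppp1r9a, Asb4 and Peg10 lie on the same chromosome as Calcr, with 9, 13 and 7 protein-coding genes between by the order of genes in RefSeq (mouse assembly GRCm38.p6), whose build may differ from that of the counts. For Hcrtr1 the closest were Slc22a14 (0.723), 9530036O11Rik (0.717) and Pdcd7 (0.698), for Glp1r Sparcl1 (0.673), for Mc4r Nsa2 (0.714) and for Galr1 Wdr1 (0.645). Over the 30 clusters Pdcd7 and Wdr1 were no longer among the 3 closest genes of their receptors. For Glp1r, Mtr (0.683) then came before Sparcl1 (0.659). Correlations of such sparse genes over clusters that share libraries are descriptions only.

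The rest of the pathway was read from a list of 37 genes of ligands, related receptors, accessory proteins, cleaving enzymes and G proteins. Of the 12 ligand genes only Agrp, Spx and Pomc were frequent enough to be tested between neurons and glia. Hcrt, the orexin precursor, averaged 0.161 ± 0.0291 CPM in neurons, and Pmch, the precursor of melanin-concentrating hormone, 0.00314 ± 0.00769 CPM. Agrp gave 52.2 ± 5.6 CPM in neurons and 29.4 ± 1.83 CPM in glia and was counted in endothelial nuclei too (37.2 ± 12.8 CPM), although its known source is a group of hypothalamic neurons. The 9 ligand genes left untested between neurons and glia had too few counts.

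Between neurons and glia, 13 of the 24 tested genes of that list were higher in neurons and 9 lower, at the 84.5% called over all genes. The higher ones with the largest differences were Trhde (3.27, SE 0.09), which encodes the enzyme that cleaves thyrotropin-releasing hormone outside the cell, Mrap2 (3.27, SE 0.08), an accessory protein of melanocortin receptors, and Gnal (2.48, SE 0.05), a stimulatory G protein subunit. Trhde averaged 513 ± 19.9 CPM in neurons and 57.8 ± 8.32 CPM in glia. The lower ones with the largest differences were Calcrl (-2.72, SE 0.11), Ramp1 (-2.58, SE 0.07) and Ramp2 (-1.82, SE 0.15), which form the receptors of calcitonin gene-related peptide and adrenomedullin. Calcrl averaged 323 ± 78.1 CPM in endothelial nuclei and Ramp1 73.7 ± 4.02 CPM in astrocytes. Ramp1, which can also pair with the Calcr product, thus had a higher level in astrocytes than in neurons, where it averaged 7.61 ± 1.45 CPM.

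Between GABAergic and glutamatergic neurons 7 of 23 tested pathway genes were higher and 6 lower, beside 16.3% higher and 13.6% lower over all genes. Trhde was higher (1.93, SE 0.15), at 528 ± 26.4 CPM in GABAergic and 138 ± 37 CPM in glutamatergic neurons, as were Gnal (1.39) and Glp2r (1.22), the receptor of glucagon-like peptide 2. Spx, a ligand of galanin receptors, was lower (-1.97, SE 0.18), at 3.36 ± 0.23 CPM in GABAergic and 12.8 ± 3.94 CPM in glutamatergic neurons, as were Calcrl (-1.51) and Plcb4 (-1.24), a phospholipase downstream of Gq.

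Between lateral septum-like and other GABAergic neurons 7 of 23 were higher, led by Trhde (0.64), Gnai1 (0.61) and Glp2r (0.46), and 8 were lower, led by Ramp1 (-1.92), Ramp2 (-1.20) and Mme (-0.99), a peptide-cleaving enzyme. Over all genes 27.7% were higher and 30.6% lower, so these counts say little about the list. Trhde averaged 615 ± 25.1 CPM in lateral septum-like and 419 ± 26 CPM in other GABAergic neurons, while Trhr itself was lower there. Ramp1 averaged 3.37 ± 0.522 CPM in lateral septum-like and 13.4 ± 2.57 CPM in other GABAergic neurons, moving with the astrocyte panel given above, and the part of astrocyte RNA in it was not tested. Between cholinergic-like and GABAergic neurons 3 of 22 were higher, namely Mrap2 (1.69), Trhde (0.63) and Plcb4 (0.42). Lower were 5, led by Ramp1 (-3.07, SE 1.13), Glp2r (-1.72, SE 0.34) and Gnal (-0.78, SE 0.16). Ramp1 passed edgeR's test narrowly (adjusted p = 0.0483), and it averaged 3.03 ± 3.99 CPM in cholinergic-like neurons over 6 libraries, from 0 to 10 CPM. Over all genes 4.66% were higher and 8.58% lower, around the median of -0.22. All of the log2 differences in this account of the pathway passed edgeR's quasi-likelihood test with Benjamini-Hochberg adjustment. The astrocyte and endothelial levels in it were not tested on their own.

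Some reads cannot be given to a receptor with certainty. Hcrtr2 overlaps an antisense gene, Gm27234, which had 72 UMIs in the kept nuclei, and Glp1r overlaps antisense transcripts that are not in the gene table. The sources used here do not say whether the counting used the strand or the introns.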

How the data were processed

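Whole-number UMI counts per gene and barcode, as deposited, were used; the submitters' processing notes name STAR and Cell Ranger 3.1.0 as the authors' tools, while the file headers give Cell Ranger 5.0.0. The libraries were Chromium 3' v3, per the labels' protocols. The genome build and the treatment of intron reads are not stated in the sources used here. No read-level data were analysed here.

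The members and lists were chosen with earlier results of these data known. Nuclei with at least 500 genes were gated on 10 marker panels by their share of UMIs (at least 100 per 10000 for neurons, 8 to 40 for others) with at least 2 panel genes detected. Gate values and naming thresholds were set after the data were seen. Of 54623 nuclei, 50125 passed 1 gate, and the 2909 that passed more and the 1589 that passed none were left out. Neurons were GABAergic or glutamatergic by the larger UMI sum of Gad1, Gad2 and Slc32a1 or of Slc17a6 and Slc17a7, at least 2 UMIs, and 4186 had neither. Simulation-based doublet calls (4199 nuclei, at an expected 0.8% per 1000 barcodes) were kept and removed only as an alternative, since 48.6 to 57.9% of simulated doublets were recovered. Neurons were clustered with scanpy 1.11.5 and leidenalg 0.10.2 in Python 3.11.15 (2000 variable genes, 40 principal components, 20 neighbours, resolution 1), leaving out the receptors and the pathway list. Names rest on marker panels and end in "-like" since location was not measured. Clusters with at least 2 glial markers among their 10 leading genes were called led by glial genes.

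Counts were summed per library and class and tested with edgeR 4.0.16 in R 4.3.3 (TMM, filterByExpr, robust quasi-likelihood test, library as block, Benjamini-Hochberg over all genes tested, threshold 0.05). The block comes from the design, since both classes of a comparison are nuclei of the same library. DESeq2 1.42.0 was an alternative. The fits were tested on simulated data. There the share of false calls was largest between neurons and glia, and recovery of changes was lowest for cholinergic-like neurons. The 8 receptors were always named, and of the pathway list the 3 genes with the largest log2 difference each way among those called. A share or level at 0 is limited by a floor of 3 counts. A result of the search for genes that follow a receptor is not reported here.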

Additional observations from a re-analysis of the deposited data

Results flagged for a closer look

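In 4 of 56 sets of 6 libraries examined, 1 library stood far from the others by Dixon's criterion, which chance alone flags in about 1 of 20 sets. Trhr in neurons was highest in replicate 2, at 11.1 CPM, while the other libraries lay between 9.44 and 9.82 CPM. Cluster 19, the highest for Trhr, made up 3.66% of the neurons of replicate 2 and 1.3 to 2.75% of those of the others, and outside cluster 19 replicate 2 had 7.78 CPM within a range of 7.39 to 8.01 CPM. Mc4r in lateral septum-like GABAergic neurons was highest in replicate 1, at 1.55 CPM, against 0.553 to 0.767 CPM in the others, and in cluster 25 the same library had 11.8 CPM. Mc4r in glutamatergic neurons was 1.11 CPM in replicate 6, on 2 UMIs, and 0 in the others. Hcrtr1 in glutamatergic neurons was 3.37 CPM in replicate 5, against 0.736 to 1.3 CPM in the others, on 15 UMIs over all 6 libraries.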

How the results depend on the processing

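Counts of genes called stayed within 1.5 times the reported count under all 65 alternatives run on them. Leaving out a library in turn gave 15754 to 15988 genes for neurons against glia (16149 reported), 4373 to 5361 for GABAergic against glutamatergic neurons (5233), 9770 to 10111 for lateral septum-like against other GABAergic neurons (10445) and 1580 to 1935 for cholinergic-like against GABAergic neurons (2272). Without the replicate block the counts were 15926, 5829, 9256 and 2684, and Hcrtr1 between GABAergic and glutamatergic neurons was the single receptor whose call that changed. None of 15 alternatives changed the call of any receptor between neurons and glia. Among all single-gene values, 471 kept their direction and call, 25 lost the call, 5 gained it and 22, all of them unthinned shares, moved. Reversals fell on values that had no call. Trhr between GABAergic and glutamatergic neurons (-0.06) ranged from -0.23 to 0.14 with libraries left out and was 0.25 without barcodes over 25000 UMIs. Over all 16 alternatives it ranged from -0.47 to 0.25. Trhr between cholinergic-like and GABAergic neurons ranged from -0.26 to 0.11 with libraries left out and was 0.03 with RLE size factors, 0.01 with DESeq2, 0.08 with gates raised by 1.5 times, 0.11 without predicted doublets and 0.06 without barcodes over 25000 UMIs. In that comparison, with DESeq2, Mchr1 stood at 0.36 and Mc4r at 0.21, both with no UMI in cholinergic-like nuclei, and Hcrtr1 ranged from -6.85 to 1.27 with libraries left out, where the lowest value has no UMI on the cholinergic-like side and is no bound. The causes were not tested. Depth limits Hcrtr1, Mchr1 and Mc4r everywhere, and every receptor in glutamatergic and cholinergic-like neurons, where a library held 109 to 182 and 9 to 17 nuclei. The setting without glia-led and low-UMI clusters, the panel sum of 800 CPM and the setting without striatal medium spiny-like clusters were chosen after seeing the data.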
